A study of Mus musculus with 18 samples.

Results

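Of the 4775 genomic regions at which MYC peaks were listed in mouse liver tumours, 208 carried one in 6 or more of the 9 libraries, and these recurrent MYC regions are described here. The 10376 peaks of the 9 deposited MYC peak lists were merged wherever they overlapped by at least 1 bp, and a merged region counted for a library when it held a peak of that library's list. The members were thus chosen by the presence of listed peaks, so how often a peak was present is a description throughout and carries no test. Among the 208 regions, 119 had a peak in 6 libraries, 43 in 7, 30 in 8 and 16 in all 9, while another 215 regions stopped at 5. A region without a listed peak in a library is one that the authors' caller did not report there, which is not the same as a region without MYC.

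The tumours came from FVB mice carrying LAP-MYC, a MYC transgene that the liver driver LAP-tTA switches on once doxycycline is withdrawn. They differed in Arid1a, whose product binds DNA within SWI/SNF, a remodeller of nucleosomes. The WT group carried floxed Arid1a without Cre, the Het group 1 floxed allele with albumin-Cre (Cre expressed from a hepatocyte promoter), and the Homo group floxed alleles on both chromosomes with albumin-Cre. Each genotype had 3 MYC libraries, each with its own peak list, and 3 input libraries. All groups shared the MYC transgene, and their ages, about 55 days in WT, 70 days in Het and 100 days in Homo, went together with genotype, so that genotype, age and the presence of Cre cannot be told apart. The labels do not say whether the libraries of 1 genotype are separate animals, so each p-value below measures only the spread between samples, and that spread may be technical.

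MYC is a basic helix-loop-helix transcription factor that binds DNA as a dimer with MAX, preferably at the E-box CACGTG. In growing cells it is best known at the promoters of genes for ribosome assembly, translation, nucleotide and polyamine synthesis and mitochondrial function. In tumours with very high MYC levels it also occupies promoters and enhancers with weak motifs or none.

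RefSeq promoter windows on GRCm38.p6 (mm10) run from 250 bases before to 50 bases after an annotated start, and 30 of the 208 regions had their median summit inside such a window, beside 28.8% of all merged regions. The letters are those of the reference strain, not of FVB. CACGTG, which reads the same on both strands, was in 19 of these 30 windows (63.3%, exact Clopper-Pearson 95% interval 43.9% to 80.1%, counting error only), against 26.5% of the 1376 merged regions of any kind with a summit in a window and 7.84% of all 21263 windows of protein-coding genes. The 9 windows printed below are the 6 with the motif from regions in 7 or more libraries, then those of Pbrm1 (whose start faces that of Gnl3), Wdr43 and Smarca4, chosen as a SWI/SNF gene, a ribosome biogenesis gene and a window without the motif. Each is written 5′ to 3′ on the strand of the gene, with CACGTG in capitals; the Smarca4 window holds none.
Dazap1 (chr10:80264764-80265063, plus strand): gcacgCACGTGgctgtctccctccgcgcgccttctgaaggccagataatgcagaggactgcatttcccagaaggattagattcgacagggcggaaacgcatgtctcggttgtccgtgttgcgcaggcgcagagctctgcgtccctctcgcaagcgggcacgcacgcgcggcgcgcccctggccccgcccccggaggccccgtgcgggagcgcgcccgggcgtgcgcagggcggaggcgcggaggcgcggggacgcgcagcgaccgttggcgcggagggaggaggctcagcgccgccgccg
Xpot (chr10:121626283-121626582, minus strand): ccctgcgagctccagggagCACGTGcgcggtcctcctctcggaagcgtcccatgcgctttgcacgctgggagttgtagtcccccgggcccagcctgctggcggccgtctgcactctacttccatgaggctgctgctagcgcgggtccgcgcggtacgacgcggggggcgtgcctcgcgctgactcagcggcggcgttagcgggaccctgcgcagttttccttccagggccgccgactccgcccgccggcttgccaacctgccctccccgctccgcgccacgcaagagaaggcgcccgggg
Psme3 (chr11:101315963-101316262, plus strand): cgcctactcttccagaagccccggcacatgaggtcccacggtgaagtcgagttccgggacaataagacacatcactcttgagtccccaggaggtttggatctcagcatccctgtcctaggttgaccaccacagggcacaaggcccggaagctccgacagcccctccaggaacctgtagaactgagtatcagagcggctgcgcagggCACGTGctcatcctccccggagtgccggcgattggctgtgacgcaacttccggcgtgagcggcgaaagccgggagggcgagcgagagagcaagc
Ran (chr5:129019906-129020205, plus strand): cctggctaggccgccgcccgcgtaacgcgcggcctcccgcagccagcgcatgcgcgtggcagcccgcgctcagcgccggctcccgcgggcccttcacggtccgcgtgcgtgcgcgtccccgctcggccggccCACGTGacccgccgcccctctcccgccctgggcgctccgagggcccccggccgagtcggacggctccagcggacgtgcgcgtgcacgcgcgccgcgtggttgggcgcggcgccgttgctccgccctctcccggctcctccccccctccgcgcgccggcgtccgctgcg
Wipf2 (chr11:98863348-98863647, plus strand): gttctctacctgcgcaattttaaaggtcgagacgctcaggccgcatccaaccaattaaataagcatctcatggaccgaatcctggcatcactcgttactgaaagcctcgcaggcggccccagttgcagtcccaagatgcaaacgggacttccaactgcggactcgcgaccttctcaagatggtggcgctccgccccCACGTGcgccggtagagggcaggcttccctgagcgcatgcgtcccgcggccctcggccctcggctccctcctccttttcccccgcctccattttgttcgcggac
Rnf145 (chr11:44518706-44519005, plus strand): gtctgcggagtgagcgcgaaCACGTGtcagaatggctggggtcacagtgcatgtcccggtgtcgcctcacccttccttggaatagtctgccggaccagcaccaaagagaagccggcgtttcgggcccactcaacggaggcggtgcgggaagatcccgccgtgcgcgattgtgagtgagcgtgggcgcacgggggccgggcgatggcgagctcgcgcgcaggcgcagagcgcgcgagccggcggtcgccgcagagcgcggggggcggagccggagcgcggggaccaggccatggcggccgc
Pbrm1 (chr14:31018888-31019187, plus strand): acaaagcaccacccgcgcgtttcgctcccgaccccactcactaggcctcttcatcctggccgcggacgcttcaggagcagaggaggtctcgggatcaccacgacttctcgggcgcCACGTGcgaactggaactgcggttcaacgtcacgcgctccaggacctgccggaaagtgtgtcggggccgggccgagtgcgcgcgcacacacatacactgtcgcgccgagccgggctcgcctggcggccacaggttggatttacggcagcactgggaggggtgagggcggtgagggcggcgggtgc
Wdr43 (chr17:71615965-71616264, plus strand): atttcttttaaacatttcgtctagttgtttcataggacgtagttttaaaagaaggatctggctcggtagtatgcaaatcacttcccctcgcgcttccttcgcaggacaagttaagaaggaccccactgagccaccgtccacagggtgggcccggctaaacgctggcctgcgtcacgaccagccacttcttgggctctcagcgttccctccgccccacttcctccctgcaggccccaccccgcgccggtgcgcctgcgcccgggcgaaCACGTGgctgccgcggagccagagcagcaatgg
Smarca4 (chr9:21615919-21616218, plus strand): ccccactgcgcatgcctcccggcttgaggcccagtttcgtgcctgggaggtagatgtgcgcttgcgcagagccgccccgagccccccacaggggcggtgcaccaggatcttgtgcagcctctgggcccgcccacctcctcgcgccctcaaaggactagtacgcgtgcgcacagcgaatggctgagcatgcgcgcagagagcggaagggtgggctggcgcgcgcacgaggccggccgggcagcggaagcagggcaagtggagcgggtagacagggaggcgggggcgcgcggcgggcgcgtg

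Over the 19 windows with CACGTG the median distance between the centre of the motif and the median summit was 16 bp, and in 16 of them it was at most 50 bp. In the 345 windows with the motif among regions that were not recurrent the median was 33 bp, and 223 of them had it within 50 bp. A recurrent summit is a median over more libraries, so these 2 distances are not like measures. The median distance was 36.5 bp for regions in 1 library, 31 bp in 2 to 5, 25 bp in 5 alone and 21 bp in 6, with few windows above 6. In the Ran window the motif begins at base 133 and the summit falls on base 136, a distance of 1 bp, and the distance was also 1 bp in the Wipf2 window (motif at base 197, summit at base 200). Ran encodes the small GTPase that drives nuclear transport, and Wipf2 encodes a WASP-interacting protein of the actin cytoskeleton. The distance was 8 bp for Wdr43, a small-subunit processome factor, 9 bp for the window shared by Pbrm1 and Gnl3, 12 bp for the ubiquitin ligase gene Rnf145 and 13 bp for the RNA-binding protein gene Dazap1. It was 28 bp for Xpot, the exportin of tRNA, and 86 bp for Psme3, the gene of the PA28 gamma proteasome activator, the farthest of the 9 printed here. The windows of Ubfd1 and Nudt9 held 2 copies each. By the number of libraries that listed the region, the motif was in 18.3% of the windows of regions in 1 library, 28.9% in 2, 33.7% in 3, 40.3% in 4, 43.4% in 5 and 56.5% of 23 in 6, then 3 of 4 windows in 7 libraries, both windows in 8 and the only one in 9. Of the recurrent windows without it, Cox5a (a cytochrome c oxidase subunit) was in 7 libraries and the other 10, Smarca4 and Fnip2 among them, were in 6. Counting the variant letters CACGCG and CATGTG as well as CACGTG, on both strands, 26 of the 30 windows held at least 1 of the 3. So did 935 of the 1376 windows with a summit of any merged region, and 28.7% of all protein-coding windows. A match is a description of these letters and no proof of a binding site, and the windows cover only part of the recurrent regions.

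A smaller share of recurrent regions than of all MYC regions lay at gene ends. The median summit lay at most 1 kb from a protein-coding gene's end in 97 of the 208 regions (46.6%, exact 95% interval 39.7% to 53.7%), against 61.3% of all 4775 merged regions and 62.0% of those that were not recurrent. A further 60 lay inside a gene away from its ends (all merged regions 25.8%) and 51 lay between genes (12.9%). The share at gene ends was 58.8% for regions in 1 library, 64.1% in 2, 64.6% in 3 and 71.7% in 4, and 60% in 5, 53.8% in 6, 48.8% in 7, 30.0% in 8 and 18.8% in all 9. Of the 111 regions off gene ends, 82 lay more than 5 kb and 18 more than 50 kb from any protein-coding end; of the 1737 off-end regions that were not recurrent, 1107 and 242 did. Among those 111, 23 had a summit within 1 kb of some start in the promoter table, either a start inside a gene span or the start of another kind of gene. No matching count is given for regions that were not recurrent, so the 23 are not read as a trait of recurrent regions. Of the same 111, 14 sat at the end of a noncoding gene, as did 235 of the 1737 that were not recurrent.

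**Figure D1:**
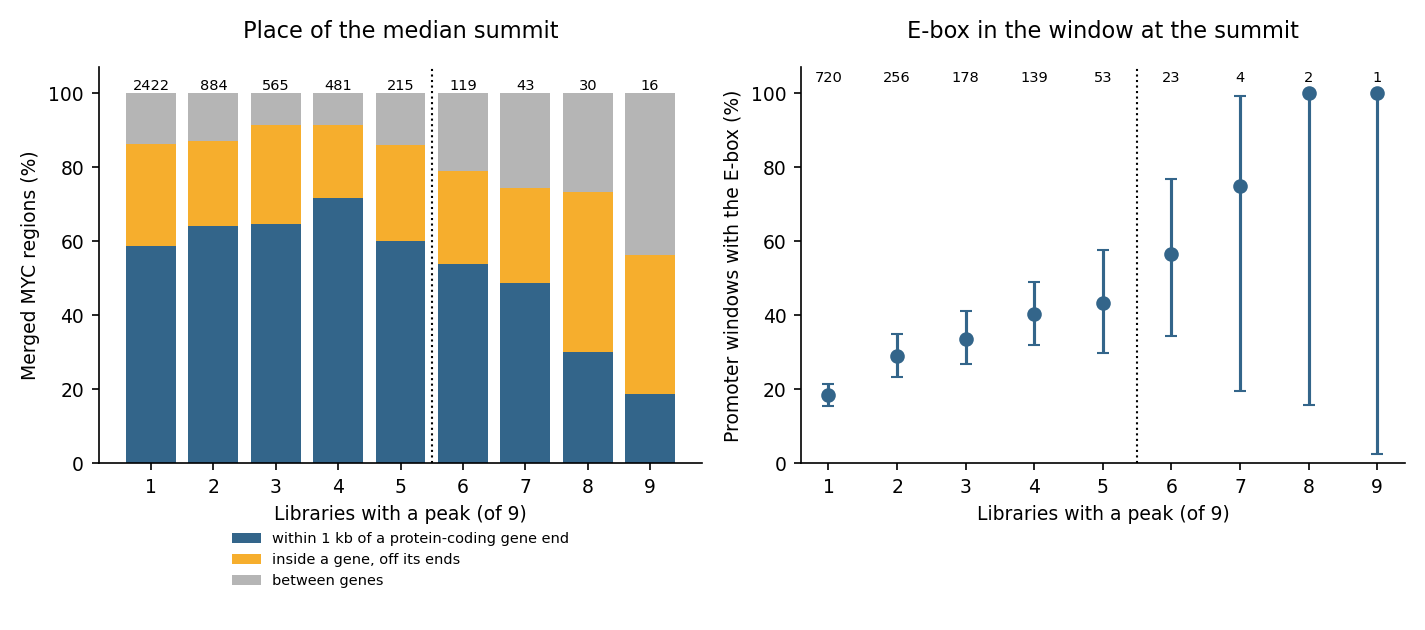
Left, merged MYC regions (%) by the place of their median summit against the number of libraries with a peak (of 9); numbers above the bars count regions, and recurrent regions stand right of the dotted line. Right, share of promoter windows holding a summit that contain CACGTG (%), with exact 95% binomial intervals and the number of windows above; the gene-end share was 71.7% in 4 libraries and 18.8% in 9, and the E-box share 18.3% in 1 library and 56.5% in 6.

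Where a start could be read, most recurrent summits at gene ends lay just downstream of it. Of the 97 regions at gene ends, 79 were at the start of the gene, 2 at its far end, and for 16 the strand was not in the table used. The 2830 gene-end regions that were not recurrent divided much alike, with 2255 at the start, 81 at the far end and 494 without strand. Among the 79 at starts, 60 summits lay downstream and 19 upstream, with a median of 191 bp downstream (range 518 bp upstream to 972 bp downstream). In regions that were not recurrent 63.0% of summits at starts were downstream and the median was 57 bp downstream. At 18 of the 97 recurrent gene ends, and at 552 of the 2927 gene ends among all merged regions, 2 or more genes shared the region, such as Hspd1 with Hspe1, the mitochondrial chaperonin pair that is divergently transcribed.

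**Figure D2:**
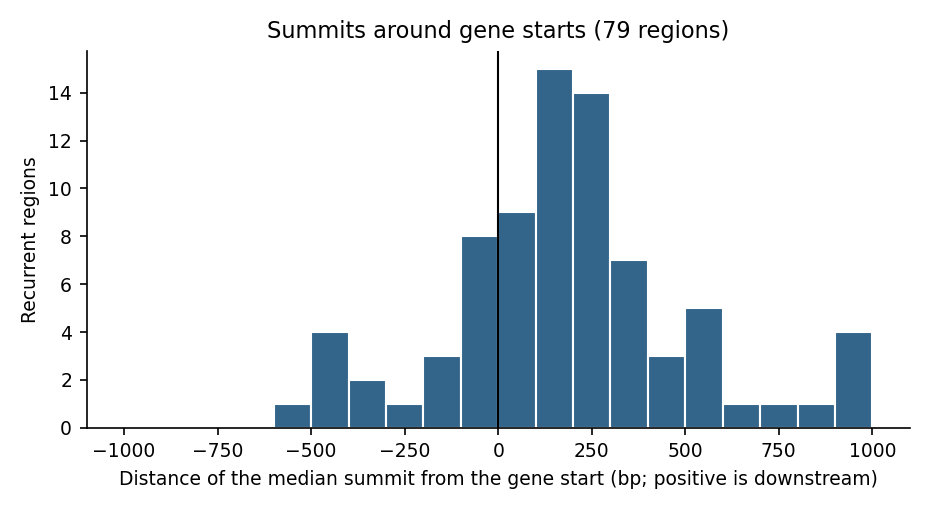
Number of recurrent regions by the distance of the median summit from the gene start (bp, positive is downstream; bins of 100 bp) for the 79 regions at a start with known strand. The summits cluster downstream of the start, 60 of 79, with the median at 191 bp.

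Which regions counted as recurrent was set by a few libraries. WT replicates 2 and 3 and Het replicates 1 and 2, the libraries with the longest lists (1567, 4291, 1713 and 1869 peaks), had a peak in all 208, and Het replicate 3 (378 peaks) in 188. WT replicate 1 (92 peaks) had a peak in 71 of them, Homo replicate 1 (112 peaks) in 87, Homo replicate 2 (51 peaks) in 47 and Homo replicate 3 (303 peaks) in 174. Over all 4775 regions the shares with a peak were 1.8%, 32.6% and 89.5% in WT replicates 1 to 3, 35.4%, 38.6% and 7.75% in Het, and 2.32%, 1.05% and 6.32% in Homo. The short lists were made up largely of recurrent regions: 82.6% of the peaks of WT replicate 1, and 78.6%, 94.1% and 57.8% of those of Homo replicates 1 to 3, against 4.99% in WT replicate 3. Of the top 51 peaks by fold, as many as the shortest list holds, 40 to 48 lay in recurrent regions in every library.

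WT replicate 1 and Homo replicate 2 stood apart in where their peaks lay. Of the recurrent regions with a peak in WT replicate 1, 12 of 71 were at gene ends (16.9%), and in Homo replicate 2 10 of 47 (21.3%), whereas in the other 7 libraries the share was 43.6% to 56.3%. WT replicate 1 thus had a peak in 12.4% of the 97 recurrent regions at gene ends and in 53.2% of the 111 off them, and Homo replicate 2 in 10.3% and 33.3%. Homo replicates 1 and 3 leaned the other way, with 50.5% and 91.8% of the gene-end regions and 34.2% and 76.6% of the others. The 82 recurrent regions with a peak in WT replicate 1 or Homo replicate 2 were at gene ends in 23.2%, and the 126 with a peak in neither in 61.9%. When these 2 libraries were set aside and regions in 6 or 7 of the other 7 were kept, 181 regions remained, of which 94 were at gene ends and 17 of 28 windows held CACGTG.

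**Figure D3:**
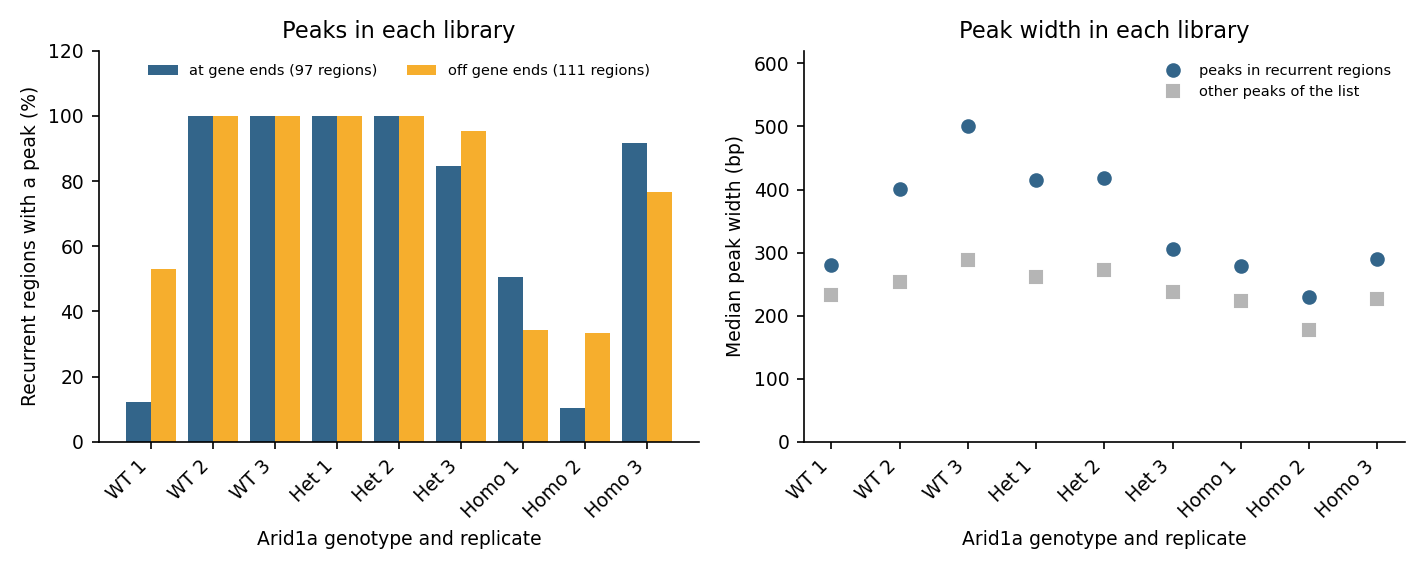
Left, percent of the 97 recurrent regions at gene ends and of the 111 off gene ends that had a peak in each library. Right, median peak width (bp) in each library for peaks in recurrent regions and for the other peaks of the same list; WT replicate 1 and Homo replicate 2 had few of the gene-end regions, and widths ran from 229 to 500.5 bp in recurrent regions.

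The local background was read from the same lists. From the deposited fold and −log10 p of each peak, the summit reads and the local background used by MACS2 were solved, the latter given as a multiple of the lowest background of the same list. In none of the 97 gene-end regions was the median multiple at that floor, and it was in 22 of the 111 regions off gene ends, beside 204 of the 1737 off-end regions that were not recurrent (11.7%). Those 204 were among 319 at the floor in all 4567 regions that were not recurrent, of which 2830 were at gene ends. Gene ends were thus seldom at the floor outside the recurrent set too. Of the 71 regions with a peak in WT replicate 1, 20 were at the floor, and of the 137 without, 2 were. The 59 off-end peaks of WT replicate 1 were at the floor in 40.7%, and the 37 of Homo replicate 2 in 40.5%, while in the other 7 libraries this share was 2.63% to 22.5%. The peaks outside recurrent regions were at the floor in 53.3% in WT replicate 1 and 33.3% in Homo replicate 2. Both shares rest on few peaks. Of the 86 regions with a peak in WT replicate 1, 71 were recurrent, and of the 50 in Homo replicate 2, 47 were. They do not decide whether the floor was particular to recurrent regions in these libraries. The median number of reads at a recurrent summit was 74.5. Whether the difference in place between libraries depends on the input was not tested.

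By genotype, the commonest combination was a peak in 2 WT, 3 Het and 1 Homo library, with 82 regions, of which 72 had their Homo peak in replicate 3. All 3 Het libraries had a peak in 188 of the 208 regions, beside 6.14% of all merged regions. Another 31 regions had 2 WT, 3 Het and 2 Homo peaks, 25 had 3, 3 and 2, and 16 had all 9. No peak in any Homo library was found for 18 recurrent regions, beside 92.8% of all merged regions, and no recurrent region lacked WT or Het peaks altogether. These 18 had all 3 WT and all 3 Het libraries, none was at a gene end, their median distance from a protein-coding end was 46695 bp, and 8 of them were at the background floor. That combination requires a peak in WT replicate 1: without that library, 109 regions had a peak in the other 5 WT and Het libraries and in no Homo library, and 54 of these were at gene ends. The 5 of the 18 with the best median rank lay by Moxd1, Aga, Gnao1, Csmd1 and Wdr60. The region inside Moxd1, which encodes a monooxygenase-like protein (chr10:24269002-24269650), had folds of 17.4, 26.8 and 23.8 in WT and 21.1, 17.9 and 12.5 in Het, and was among the first 30 peaks of each of these lists.

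At gene ends, the regions in all 9 libraries were those of Ncl, Pde4a and Ube2cbp. A fold here is the authors' value for 1 peak, the scaled MYC reads at the summit over the local background, and folds order peaks within a list only. Ncl encodes nucleolin, a major nucleolar protein needed for ribosomal RNA synthesis; its region (chr1:86358489-86359058) lay 683 bp from the start, inside the gene. The Ncl fold was 10.9, 19.5 and 25.5 in WT replicates 1 to 3, 17.0, 23.8 and 13.6 in Het, and 13.0, 12.4 and 8.92 in Homo. It ranked 2nd and 6th in Homo replicates 1 and 2, and between 10th and 62nd in the other lists. Pde4a encodes a cyclic AMP phosphodiesterase, and its region lay 518 bp upstream of the start. The Pde4a fold was 4.57, 22.9 and 12.4 in WT, 17.1, 20.2 and 13.2 in Het, and 6.73, 5.34 and 8.64 in Homo. Ube2cbp encodes a ubiquitin ligase, and its region lay 191 bp inside the gene from its start. Its fold was 5.15, 18.8 and 25.7 in WT, 9.92, 16.3 and 5.30 in Het, and 8.40, 5.81 and 9.28 in Homo.

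Of the 9 gene-end regions in 8 libraries, 4 lacked a peak in WT replicate 1 and 5 in Homo replicate 2. The former lay at Pemt, Psme3, Mrpl23 and the shared end of Ifrd2 and Hyal3. Pemt, the liver enzyme that makes phosphatidylcholine from phosphatidylethanolamine, had a fold of 15.9 and 12.6 in WT replicates 2 and 3, 16.3, 26.1 and 14.3 in Het, and 3.59, 9.90 and 13.3 in Homo. Psme3 had 10.02 and 14.1 in WT, 6.11, 12.3 and 9.81 in Het, and 7.37, 7.54 and 7.38 in Homo. The latter group was Xpot, Srm, Pdia5, the end of Vars and its neighbour D17H6S56E-5, and the end of Fam185a and Ccdc146. Xpot had folds of 6.91, 11.1 and 32.5 in WT, 10.05, 21.5 and 6.80 in Het, and 4.15 and 8.66 in Homo replicates 1 and 3; it ranked 4th in WT replicate 3 and 105th of 112 in Homo replicate 1. Srm, the spermidine synthase of polyamine production, had 7.16, 10.7 and 16.6 in WT, 15.03, 8.51 and 11.1 in Het, and 7.11 and 6.64 in Homo. Vars, the cytosolic valyl-tRNA synthetase, had 6.28, 9.43 and 12.3 in WT, 10.8, 12.1 and 7.31 in Het, and 4.77 and 9.002 in Homo. Pdia5, a protein disulfide isomerase of the endoplasmic reticulum, was the last peak of 92 in WT replicate 1 with a fold of 3.69, and had 15.2 in Het replicate 1.

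Of the 570 listed genes that matched the table, 43 had a recurrent region at an end, in 41 of the 97 gene-end regions, while 115 of 21887 protein-coding genes (0.525%) had one and 14.9% had a merged region of any kind. The lists were drawn up with results of these data known and hold many established MYC targets, so their counts are descriptions. Ribosome biogenesis had 8 of 65 genes with a recurrent end: Ncl (9 libraries) and Ifrd2 (8 libraries), and in 6 libraries each the RNA polymerase I subunit gene Polr1b, the nucleolar GTPase gene Gnl3, the helicase gene Ddx21, Wdr43, the box C/D snoRNP gene Nop56 and the nucleolar chaperone gene Nolc1. Of the ribosomal protein genes 5 of 81 did, namely Rpl12, Rpl32, Rpl5, Rpl10a and Rpl27, and of the translation factors 5 of 52, namely Eif3e, Eef1e1, Eif5a, Eef1a1 and Eif1a. RNA-binding and splicing genes had 6 of 43 (Pcbp1, Snrpd1, Srsf7, Prmt1, Hnrnpa1 and Ptbp1), and chaperones and proteasome 4 of 33 (Psme3, Pdia5, Ppia and Fkbp4). Nucleotide and polyamine synthesis had 3 of 37 (Srm, Odc1 and Atic). The list of mitochondrial ribosome, import and chaperones had 2 of 45 (Hspd1 and Hspe1). That of tRNA synthetases and tRNA export had 2 of 24 (Xpot and Vars), and nuclear transport 1 of 16 (Ran). The lists do not hold every gene of a class: Mrpl23, a mitochondrial ribosomal protein gene with a recurrent end in 8 libraries, was on none.

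The cell cycle list had 1 of 30 (Ccne2, cyclin E2), glycolysis 1 of 22 (Pkm, pyruvate kinase), SWI/SNF 2 of 26 (Smarca4, the BRG1 ATPase, and Pbrm1, a subunit of the PBAF form) and the circadian list 2 of 17 (Nr1d2 and Ciart, both repressors of the clock). Of the genes that encode MYC's partners and antagonists 0 of 14 had a recurrent region at an end; the recurrent region inside Mnt, whose product pairs with MAX and opposes MYC, lay 7012 bp from an end. Among markers of cell identity, 1 of 30 hepatocyte genes (Pemt) had one, and 0 of 14 immune, 0 of 12 endothelial and stellate and 0 of 7 cholangiocyte genes. The listed regions did not stand above the other gene-end regions in fold: the median of their median folds was 8.67, against 8.48 in the other 56. They had a peak in WT replicate 1 in 6 of 41 and in Homo replicates 1 to 3 in 23, 4 and 39, against 6, 26, 6 and 50 of the other 56.

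The other 56 gene-end regions belong to genes on none of the lists. Only some are named here, picked after their values were seen, so the names do not show the make-up of these 56 regions. In 7 libraries they included Cand1, which exchanges the substrate receptors of cullin ubiquitin ligases, Seh1l, a nucleoporin gene, Tbrg4, a regulator of mitochondrial RNA, and Dph6, which completes the diphthamide of elongation factor 2. In 6 libraries they included Pus7 and Pus3 (pseudouridine synthases), Trit1 (a tRNA-modifying enzyme), Pop1 and Rpp38 (subunits of RNase P and MRP), Nol9 (a nucleolar kinase), Prmt3 (an arginine methyltransferase of a ribosomal protein), Riok2 (a kinase of small-subunit maturation), Slc7a1 (a transporter of cationic amino acids), Mat2a (the synthase of S-adenosylmethionine), Brd2 (a bromodomain reader of acetylated histones) and Tet3 (a 5-methylcytosine oxidase). The regions of Snx5, Snx18, Golim4 and Drg2, also in 6 libraries, were among the 56 too. Over all 97 gene-end regions the median fold of a region lay between 5.14 and 14.8, and the region at the upper limit was that of Eef1e1, a tRNA synthetase cofactor, in 6 libraries.

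The deposited folds of single growth genes are given here library by library, without a comparison between libraries. The Ran region had folds of 9.67 and 17.4 in WT replicates 2 and 3, 6.26, 11.4 and 8.23 in Het, and 5.13 and 8.93 in Homo replicates 1 and 3. Odc1, the ornithine decarboxylase that starts polyamine production, had 9.27 and 25.1 in WT, 9.54, 17.8 and 5.66 in Het, and 4.42 and 7.98 in Homo. Polr1b had 10.4 and 13.4 in WT, 13.6, 15.8 and 4.65 in Het, and 7.42 in Homo replicate 1. Eif5a, the hypusinated translation factor, held 2 recurrent regions whose summits were 1195 bp apart, one 186 bp from its start in 6 libraries and one 1381 bp inside the gene in 7. The inner region had 14.04 and 18.3 in WT, 19.96, 15.6 and 7.37 in Het, and 5.98 and 9.28 in Homo, and the outer one 10.6 and 12.0 in WT, 10.1, 11.8 and 9.89 in Het, and 13.2 in Homo replicate 3. The Smarca4 region, whose promoter window without CACGTG is printed above, had 8.42 and 12.7 in WT, 10.02, 7.02 and 8.52 in Het, and 8.15 in Homo replicate 3.

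Off gene ends, 13 regions had a peak in all 9 libraries, and the median fold of regions in all 9 was above that of the whole recurrent set. Off the ends of gene spans does not always mean off promoters. The Dazap1 region, 1 of the 13, lay 3422 bp from the start of the span, with its summit in the promoter window printed above. Another 2 sat at the ends of noncoding genes. The median of the median folds was 14.2 for the 16 regions in all 9 libraries, 9.22 for all recurrent regions and 6.54 for the others. A rule that asks for listed peaks can favour high folds, and each median rests on the libraries that listed the region. The order of these sets is thus no finding apart from the rule. Within the recurrent set the median was 8.56 at gene ends and 9.99 off them. The region inside Uqcrc1, the gene of a core subunit of respiratory complex III (chr9:108943205-108944065, 6148 bp from the gene's far end), had folds of 22.4, 33.5 and 34.4 in WT, 27.4, 24.5 and 23.4 in Het, and 8.43, 11.5 and 13.4 in Homo. It was among the first 10 peaks of every list but that of Homo replicate 1, where it was 23rd. The region near Cbx7, a Polycomb subunit gene 7746 bp away, had 23.8, 37.9 and 27.2 in WT, 16.7, 32.8 and 30.8 in Het, and 10.8, 11.6 and 14.5 in Homo, among the first 10 in 8 of the 9 lists. The region 33036 bp from Ramp3 had 23.3, 33.2 and 30.2 in WT, 25.7, 26.6 and 18.2 in Het, and 9.42, 11.2 and 11.1 in Homo. Folds depend on how each library was scaled to its input and were not compared between libraries. Rgcc, 3619 bp from its region, was the first peak of WT replicate 1 (27.3) and of Homo replicate 1 (16.8) but 669th in Het replicate 2 (8.03). Kcnj6 (3443 bp away) was the first peak in Het replicate 1 (35.5) and in Homo replicate 3 (20.3), and Zfp706 (88079 bp away) in Het replicate 2 (34.2).

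**Figure D4:**
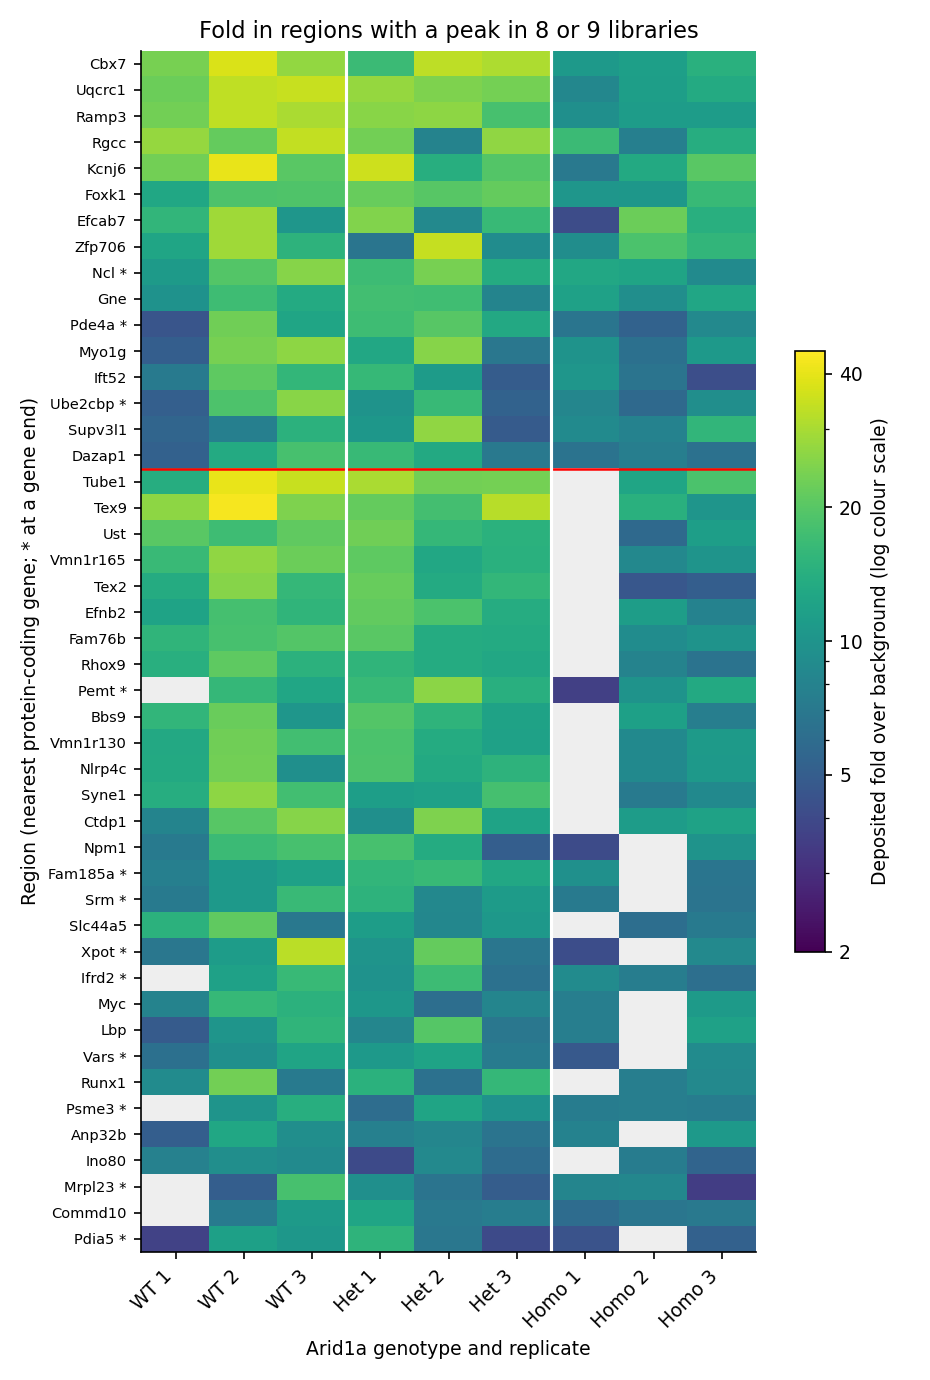
Deposited fold over background (log colour scale) in each of the 9 libraries for the 46 regions with a peak in 8 or 9 libraries; grey marks no listed peak, the red line divides 9 from 8, and an asterisk marks the 12 regions at a gene end. The missing values fall in WT replicate 1, Homo replicate 1 and Homo replicate 2.

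Among the 14 recurrent regions at the ends of noncoding genes, some lay at snoRNA hosts. The region named by Myo1g, in all 9 libraries, sat at Snhg15, a snoRNA host gene, and had folds of 5.07, 23.6 and 26.4 in WT, 13.0, 25.5 and 6.87 in Het, and 9.89, 6.32 and 10.8 in Homo. The region named by Lbp, in 8 libraries, sat at Snhg17, and the one named by Zfp949, in 6, at Snhg5, both snoRNA host genes. The region nearest to Myc itself (chr15:62037759-62038262) lay 47674 bp away, at a boundary of Pvt1, the noncoding gene beside Myc. Whether that boundary is the start or the far end of Pvt1 was not read. The region had folds of 8.07, 16.2 and 14.7 in WT, 10.4, 6.14 and 8.23 in Het, and 7.57 and 10.9 in Homo replicates 1 and 3. Npm1, the nucleolar histone chaperone gene, held a region 1754 bp from an end, just outside the 1 kb limit, in 8 libraries, with folds of 7.26, 16.8 and 18.1 in WT, 18.3, 13.5 and 5.10 in Het, and 4.09 and 9.84 in Homo.

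Other off-end regions lay in gene deserts and repeated gene families. On chromosome 7, 5 recurrent regions lay 29682 to 36861 bp from genes of the Vmn1r vomeronasal receptor cluster, a family of closely similar genes (Vmn1r107, Vmn1r130, Gm5891, Vmn1r155 and Vmn1r165). They had a peak in all WT and Het libraries and in 1 or 2 Homo libraries, all 5 were at the background floor, and the distances of Vmn1r107 and Vmn1r155 were both 29682 bp, so the members may share sequence and are not independent. The Tube1 region (6121 bp inside the gene of epsilon-tubulin), in 8 libraries, had the best median rank of all: 1st or 2nd in WT replicates 2 and 3, Het replicate 1 and Homo replicate 3, with folds of 40.6, 34.7, 30.2 and 18.5 there, and no peak in Homo replicate 1. The worst ranks were those of Ciart, Nudt9, Col19a1, Snrpd1 and Golim4. The region 25458 bp from Col19a1 (chr1:24612507-24614147), at 2 noncoding genes, was last or next to last in all 7 lists that held it, with folds of 1.62 to 2.13, and its local background was 81.7 times the floor. It was the only recurrent region with a median fold under 3.

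Just inside and outside the threshold the values overlapped. Of the regions in 6 libraries, those with the best median rank lay by Moxd1, Eef1e1 and Igsf8, with median folds of 19.5, 14.8 and 13.2. Those in 5 libraries lay by Ppan, Rfng and Trmt10a, with 13.7, 12.9 and 12.8.

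Within each list the recurrent regions ranked high in the long lists and in the middle of the short ones. Their median rank as a percentile of the list, from 0 for the top, was 42.4, 11.6 and 5.96 in WT, 11.4, 12.7 and 36.3 in Het, and 48.2, 46.1 and 40.3 in Homo. A list made almost wholly of recurrent regions must place them near its middle, so these percentiles cannot be compared between lists of different length.

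The width of the peaks was not used directly to choose the regions, and no difference between genotypes passed the test over all 9 libraries. The median width of peaks in recurrent regions was 280, 400.5 and 500.5 bp in WT, 415, 417.5 and 306 bp in Het, and 279, 229 and 290 bp in Homo. The means of these medians were 394 ± 110 bp in WT, 380 ± 63.7 bp in Het and 266 ± 32.5 bp in Homo (SD, n = 3 libraries each). WT replicate 1 lay among the Homo libraries and the other 2 WT libraries above them. Of the sum of squares of the log2 widths, 49.3% lay between genotypes (two-sided exact permutation test over 9 libraries, p = 0.179, adjusted 0.268, smallest possible 0.00357), and Homo minus WT was -0.53 on the log2 scale (exact permutation p = 0.0798, adjusted 0.239, over 3 tests). Without WT replicate 1, these values became 75.4% and -0.76 (exact permutation p = 0.0286 and 0.0179, adjusted 0.0429 for both), so the call depends on that library. With Homo replicate 2 left out as well, the log2 difference was -0.65 and neither test passed (exact permutation p = 0.0952 for the share and 0.0286 for the difference, adjusted 0.143 and 0.0857). Over the 16 regions in all 9 libraries, so the same regions in each, the share was 33.9% and the difference -0.398. Neither passed (exact permutation p = 0.275 and 0.245, adjusted 0.4125 for both). The other peaks of the same lists were narrower in every library and had median widths of 233, 253 and 288 bp in WT, 261, 273 and 237 bp in Het, and 224, 177 and 227 bp in Homo, lowest likewise in Homo. A rule that asks for overlapping listed peaks can favour wide ones, so that contrast is no finding apart from the rule. The median peak width of a region was 245 bp in 1 library, 317 bp in 5 and 550.5 bp in 9. The share of the width difference that goes with list length was not tested.

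The position of the summit within a recurrent region was close to the same in all libraries. Between pairs of libraries the median distance of the summits over shared regions was 17.5 to 38.0 bp. It averaged 25.4 bp within a genotype and 25.8 bp between genotypes, a difference of -0.407 bp (two-sided exact permutation p = 0.779, adjusted 0.779). The merged regions had a median length of 550.5 bp (283 to 3790 bp), and 15 of them were over 1 kb long, beside 0.628% of all merged regions. A merged region spans all its peaks, so more libraries tend to lengthen it, and the length is no trait apart from the rule. None of the 2422 regions in 1 library was longer than 790 bp, and 15 of the 2145 in 2 to 5 libraries were over 1 kb. In 143 of the 208 regions all summits lay within 100 bp, beside 163 of the 215 regions in 5 libraries and 1826 of the 2145 in 2 to 5. This spread is a range over libraries, so a larger number of libraries tends to widen it. In 5 recurrent regions the summits spread over more than 500 bp, namely at Wdr60 (2285 bp), Col19a1 (768 bp), Slc19a1 (627 bp), Fkbp4 (584 bp) and Ift52 (513 bp). Of these, Slc19a1 encodes the reduced folate carrier, Ift52 an intraflagellar transport protein and Fkbp4 an HSP90 cochaperone.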

How the data were processed

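The assay was chromatin immunoprecipitation with sequencing, with 9 MYC libraries, 3 per genotype as the sample titles give them, and the peak lists of these libraries were analysed. Per the submitters' processing notes, the build was mm10 and the tools were MACS2 2.0.10.20131216, Bowtie2 2.2.3, HOMER and Picard. The peak threshold was not given in the sources used here. Per peak, the lists hold the authors' fold over background (a ratio), −log10 q and −log10 p as deposited, an integer score that the authors deposited, and a deposited offset of the summit. Read totals are not used here.

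The members and gene lists were chosen with earlier results of these data known. Peaks overlapping by at least 1 bp were merged, and the summit of a region is the median of its peaks' summits (start plus offset). Gene spans were RefSeq's on GRCm38.p6, given without strand; strand came from the table of promoter windows, whose chromosomes hold 203 of the 208 regions. Solved summit reads and background were taken from fold and −log10 p together, with 1 solution for 98.5% to 100% of peaks per list; this was tested on simulated data. Ranks are by fold within a list. Widths and summit distances were compared by two-sided exact permutation over libraries (scipy 1.17.1, pandas 2.3.3), with Benjamini-Hochberg adjustment over 3 tests. Intervals are exact Clopper-Pearson at 95% and cover counting error only.

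Named regions were those in 9 or 8 libraries, up to 6 members of each gene list, the 5 best and 5 worst in median rank, the 3 nearest the threshold on each side, up to 5 lacking a genotype, the 5 widest summit spreads, and up to 8 over 5 kb from a gene end. The Vmn1r, Mnt, Pvt1, Snhg and printed-window remarks and the pick of unlisted gene-end regions were added after the values were seen. Alternatives were stricter peaks, other library minimums, other windows and motifs, each library left out, a replicate block, and a run without both WT replicate 1 and Homo replicate 2 (for the motif share and the gene lists this was chosen after seeing the data).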

Additional observations from a re-analysis of the deposited data

How the results depend on the processing

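The limits are few libraries (3 per genotype), lists of 51 to 4291 peaks, and a selection that rests on those lists. The number of recurrent regions was 423 for 5 or more libraries, 89 for 7 or more, 46 for 8 or more and 16 for all 9; with 1 library left out and the same minimum of 6 it was 89 to 204, lowest without WT replicate 2 or 3 or Het replicate 1 or 2, which hold every recurrent region, and 108 and 118 without Het replicate 3 and Homo replicate 3. The gene-end share was 37.1%, 26.1% and 18.8% for at least 7, at least 8 and all 9 libraries, 23.6% within 250 bp of a gene end, 60.6% within 5 kb, and 33.9% to 50.8% with 1 library left out. The median rank percentile of regions in all 9 libraries was 3.09 in Het and 16.4 in Homo, and that of Homo was 39.6 to 46.9 with 1 library left out. Any of the E-box and its 2 variants was in 86.7% of the 30 windows, and the E-box itself in 85.7% of the 7 windows from regions in 7 or more libraries and 100% of the 1 window from regions in all 9. Leaving WT replicate 1 out of the rule for regions with no Homo peak, which then asks for the other 5 WT and Het libraries in place of 6 and so also lowers the minimum, gave 109 in place of 18; this was chosen after seeing the data. With 1 library left out, the share of sum of squares in width was 34.6% to 75.4%, Homo minus WT was -0.76 to -0.34 (log2), and the summit difference was -1.45 to 0.262 bp, positive without WT replicate 1 (0.190) or 2 (0.262); the cause was not tested. With WT replicate 1 and Homo replicate 2 both out, chosen after seeing the data, 42 of the 43 listed genes were kept. Of 88 named regions, 75 stayed in 6 or more libraries with −log10 q of at least 5, and 71 with fold of at least 5.

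With the replicate number as a block the width share was 50.9% (exact permutation p = 0.278), Homo minus WT -0.53 (p = 0.102, exact permutation) and the summit difference -0.407 bp (exact permutation p = 0.861), so no call changed. The samples share only a number: over the 16 regions in all 9 libraries, the correlation of deviations between same-numbered libraries averaged -0.0542 (-0.549 to 0.380, 9 pairs), against 0.0280 for other pairs, and 4 of 9 libraries correlated best with their own number.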
